A study of Mus musculus with 6 samples.

Results

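The 7 chromobox genes Cbx1, Cbx2, Cbx3, Cbx5, Cbx6, Cbx7 and Cbx8 were followed in RNA-seq libraries of molar dental pulp from control and Ror2 mutant mice. They were chosen by gene symbol from a table of 27506 genes, and all 7 passed the filter on low counts, as did 19330 genes in all. The tissue was the dental pulp of the mandibular first molar at postnatal day 3.5 (P3.5), a stage at which the molar root begins to form. There were 3 libraries of Ror2fl/fl mice, which carry 2 floxed Ror2 alleles without Cre and served as controls, and 3 of Osr2-Cre;Ror2fl/fl mice, called Ror2 mutants here. Both groups had the C57BL/6 strain in their labels. In the mutants, Osr2-Cre deletes Ror2 in the dental mesenchyme and alveolar bone, and cells of other lineages in the dissected tissue keep it. The labels do not say whether the 3 libraries of a group came from separate animals or from pools, so each p-value measures the spread between these libraries.

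Chromobox proteins read methylated histone H3. Cbx5, Cbx1 and Cbx3 encode the heterochromatin proteins HP1 alpha, HP1 beta and HP1 gamma, which bind methylated H3K9 through a chromodomain and pair with one another and with partner proteins through a chromoshadow domain. HP1 alpha and HP1 beta are best known from compacted pericentromeric chromatin, while HP1 gamma is also found along transcribed genes. Cbx2, Cbx6, Cbx7 and Cbx8 encode alternative readers of methylated H3K27 in canonical Polycomb repressive complex 1 (PRC1), and a complex takes up 1 of them at a time. In cultured stem cells Cbx7 is known as the reader of the undifferentiated state, whereas Cbx2 and Cbx8 enter the complex as cells differentiate. The transcript level of these genes in pulp does not give the amount of the proteins on chromatin.

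The coding sequence for the chromodomain shows how close the 3 HP1 genes are and why reads of Cbx3 can be confused with those of its copies. A stretch of 120 bases of each coding sequence, starting 13 codons before the same conserved run of residues, is printed 5′ to 3′ from GENCODE M21 transcripts, with capitals for bases that differ from Cbx3 at the same place.
Cbx3: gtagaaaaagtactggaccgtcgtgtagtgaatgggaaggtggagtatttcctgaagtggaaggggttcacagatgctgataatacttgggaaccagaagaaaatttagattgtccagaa
Cbx1: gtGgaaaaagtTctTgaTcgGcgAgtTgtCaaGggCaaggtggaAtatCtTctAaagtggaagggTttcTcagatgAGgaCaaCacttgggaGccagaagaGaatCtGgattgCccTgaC
Cbx5: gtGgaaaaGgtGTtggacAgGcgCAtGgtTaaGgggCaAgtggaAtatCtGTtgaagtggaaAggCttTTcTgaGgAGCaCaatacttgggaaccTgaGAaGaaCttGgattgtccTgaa
Cbx1 differed from Cbx3 at 27 of these 120 bases and Cbx5 at 34, so that identity was 77.5% and 71.7%. The pseudogenes Cbx3-ps6 and Cbx3-ps7 differed from Cbx3 at 0 bases of the same stretch. Between an HP1 gene and a Polycomb gene, identity over the stretch ranged from 49.2% to 60.8% in 12 pairs, and among the 4 Polycomb genes it ranged from 64.2% to 76.7% in 6 pairs.

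The genes lie on 3 chromosomes (GRCm38). Cbx1 is on chr11:96789127-96808640 and Cbx2 on chr11:119022962-119031270, both on the plus strand, with Cbx8 on chr11:119036305-119040969 on the minus strand. Cbx5 (chr15:103191544-103239816), Cbx6 (chr15:79823896-79834688) and Cbx7 (chr15:79915807-79971119) are on the minus strand of chromosome 15, and Cbx3 is on the plus strand of chromosome 6. Over the whole transcripts, the genes differed in how many stretches of 75 bases, the read length, they had in common with another gene. Cbx1, Cbx2, Cbx5 and Cbx8 had 0 such stretches outside themselves. Of 6195 stretches of Cbx3, 478 (7.72%) occurred in another gene, mostly processed pseudogenes of Cbx3 and genes that overlap them. Cbx6 had 490 of 11070 stretches (4.43%) in common with Npcd, a gene of the same strand that overlaps it. Cbx7 had 26 of 6837 (0.380%) in common with Apobec3, whose tail overlaps that of Cbx7 on the opposite strand, and the sources used here do not say whether counting used strand.

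The libraries held 56134770 to 62628940 estimated counts, and libraries of the same group differed by more than sampling noise. Mutant library 2 stood apart from the other mutant libraries on the second principal component (50.6 against -28.1 and -34.9), so values of some genes are also given without it. In the fit across all genes (edgeR quasi-likelihood test with Benjamini-Hochberg adjustment), 3906 genes passed an adjusted p of 0.05. Without control library 1, 2 or 3 this count was 2680, 910 or 872, so leaving out a control cost many genes their call. Ror2 was at 38.2, 36.2 and 36.7 CPM, counts scaled by library size, in control libraries 1 to 3 and at 27.9, 28.1 and 26.3 CPM in mutant libraries 1 to 3. It was lower in every mutant library than in any control (log2 fold change -0.43 ± 0.08 SE, edgeR adjusted p = 0.0134), and the call was lost without control library 2 (adjusted p = 0.0664) or 3 (adjusted p = 0.0752). Counts cover all exons of Ror2, so transcripts that lack the floxed part still count.

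Cbx3 was the most strongly reduced chromobox gene. It was at 114, 119 and 123 CPM in the controls and at 64.9, 62.8 and 53.9 CPM in the mutants. The groups lay far apart, with the lowest control library well above the highest mutant library. In the fit across all genes Cbx3 fell by 49.0% (log2 fold change -0.97 ± 0.10 SE, 95% interval -1.21 to -0.74, edgeR adjusted p = 0.000982).

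Cbx5, the HP1 alpha gene, also fell, by less. It was at 96.1, 109 and 105 CPM in the controls and at 86.9, 79.9 and 74.4 CPM in the mutants, again without overlap. Cbx5 fell by 22.1% (log2 fold change -0.36 ± 0.10 SE, 95% interval -0.59 to -0.13, edgeR adjusted p = 0.0392). This call was close to the threshold and was lost without control library 2 (adjusted p = 0.167), control library 3 (0.15) or mutant library 3 (0.0685).

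Cbx1, the HP1 beta gene, did not pass the test. It was at 61.9, 64.6 and 64.9 CPM in the controls and at 50.1, 60.6 and 60.0 CPM in the mutants. Every mutant value was below every control value, and mutant library 1 was the lowest. The log2 fold change was -0.17 ± 0.10 SE with a 95% interval of -0.40 to 0.07 (edgeR adjusted p = 0.258), an interval that excludes a decrease as large as that of Cbx3.

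Among the Polycomb genes, Cbx7 was the only one that passed the test, and it rose. It was at 2.69, 3.19 and 3.19 CPM in the controls and at 6.44, 10.2 and 4.76 CPM in the mutants, which corresponds to 173, 186 and 197 counts against 381, 587 and 281. The 3 controls were close together and the mutants spread widely above them, with mutant library 2 the highest. The level was 136% higher in the mutants (log2 fold change 1.24 ± 0.27 SE, 95% interval 0.62 to 1.85, edgeR adjusted p = 0.0186). Without mutant library 2 the log2 fold change was 0.90 and the call held (adjusted p = 0.0187), but it was lost without control library 1 (0.0616), 2 (0.0711) or 3 (0.0717). The log2 fold change without these controls was 1.15, 1.27 and 1.27.

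The other Polycomb genes did not pass the test. Cbx6, the most abundant of them, was at 131, 144 and 141 CPM in the controls and at 138, 140 and 148 CPM in the mutants. The ranges overlapped, and the log2 fold change was 0.03 ± 0.09 SE with a 95% interval of -0.18 to 0.25 (edgeR adjusted p = 0.819). Cbx2 was at 14.9, 15.0 and 14.9 CPM in the controls and at 14.4, 17.1 and 19.1 CPM in the mutants. The controls were almost identical, and the mutants spread on both sides of them (log2 fold change 0.17 ± 0.12 SE, 95% interval -0.11 to 0.46, edgeR adjusted p = 0.335). Cbx8, the neighbour of Cbx2 on chromosome 11, was at 7.79, 10.3 and 8.84 CPM in the controls and at 8.25, 8.91 and 8.93 CPM in the mutants. All mutant values of Cbx8 lay within the range of the controls (log2 fold change -0.05 ± 0.14 SE, 95% interval -0.36 to 0.27, edgeR adjusted p = 0.827).

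**Figure D1:**
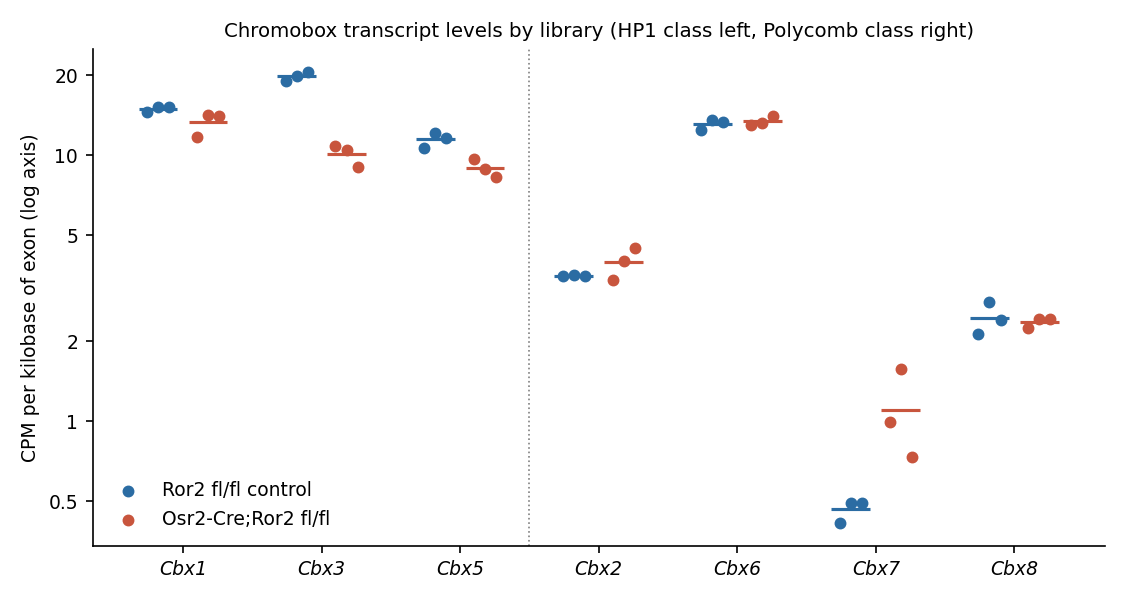
Level of each chromobox gene in every library, in CPM per kilobase of exon on a log axis, with 1 point per library, a line at each group's mean, and control libraries 1 to 3 and mutant libraries 1 to 3 from left to right. Cbx3 has the widest gap between groups among the HP1 genes, Cbx7 is the lowest gene and higher in all 3 mutants, and the points of Cbx2, Cbx6 and Cbx8 overlap between groups.

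In all, 3 of the 7 genes passed the test, where 20.2% of all genes tested did. Of them 1 was higher in the mutants, against 10.4% of all genes, and 2 were lower, against 9.84%. In 4 of the 7, Cbx1, Cbx3, Cbx5 and Cbx7, the libraries of the groups did not overlap, which held for 44.7% of all genes tested. Without control library 2 or control library 3 only Cbx3 passed, so that the count was 1 in place of 3. As pulp was measured in bulk, a lower level may mean fewer cells of a type or less RNA per cell, and these cannot be told apart.

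The 2 classes differed in base composition. Exons of the 3 HP1 genes had a GC content of 40.9% (Cbx3), 43.2% (Cbx5) and 46.6% (Cbx1), whereas those of the Polycomb genes lay between 56.4% (Cbx8) and 58.1% (Cbx2). Across the 19330 genes tested, which are not independent replicates, the log2 fold change rose with GC content (Spearman's rho 0.342). With an offset per library for GC content, which brought rho to -0.004, Cbx3 was still lower (log2 fold change -0.65, adjusted p = 0.00935) and Cbx7 still higher (1.01, adjusted p = 0.0309). The value of Cbx5 was then -0.12 on the log2 scale (adjusted p = 0.43), and -0.01 (adjusted p = 0.945) when exon length was also taken into account. Whether the relation to GC content arose in the tissue or in making the libraries was not tested.

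**Figure D2:**
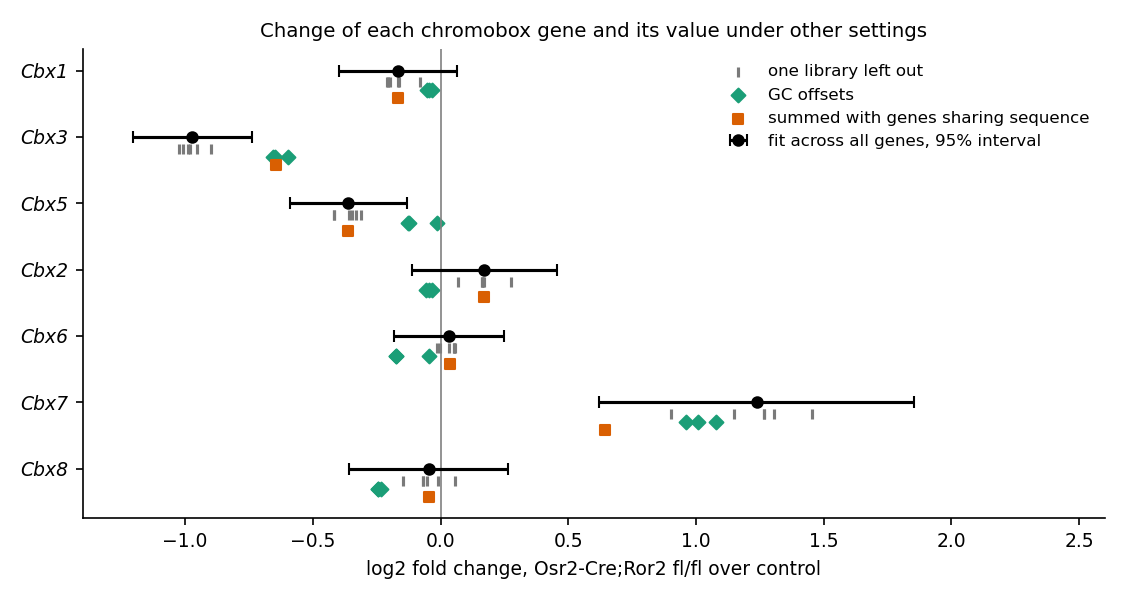
Log2 fold change of each chromobox gene in mutants over controls, with black points and bars for the fit across all genes and its 95% interval, grey ticks for fits without 1 library, green diamonds for fits with GC offsets and orange squares for counts summed with genes that share sequence. Cbx3 stays between -1.02 and -0.60 and Cbx7 between 0.64 and 1.45 in every setting, while Cbx5 reaches -0.01 with the GC and length offset.

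Divided by exon length, the levels give an order of abundance among the genes, which can depend on the length chosen. Exon length covers every exon of a gene and exceeds the longest transcript to an unequal degree. The 2 lengths are 4273 and 2377 bases for Cbx1, 5992 and 2926 for Cbx3, and 10609 and 7850 for Cbx6. No order was computed with the longest transcript, so the place of Cbx6 relative to Cbx1 and Cbx3 is uncertain. In controls, Cbx3 was the highest at 19.8 ± 0.761 CPM per kilobase (SD, n = 3), followed by Cbx1 at 14.9 ± 0.392, Cbx6 at 13.1 ± 0.636 and Cbx5 at 11.5 ± 0.721. Cbx2 (3.52 ± 0.0129), Cbx8 (2.44 ± 0.344) and Cbx7 (0.466 ± 0.0449) followed at a distance, and no neighbours in this order overlapped. In mutants, Cbx6 (13.4 ± 0.513) and Cbx1 (13.3 ± 1.38) came first and overlapped. Cbx3 (10.1 ± 0.973) came after them and overlapped with Cbx5 (8.93 ± 0.698), which was followed by Cbx2 (3.96 ± 0.552), Cbx8 (2.37 ± 0.105) and Cbx7 (1.10 ± 0.427). By these counts Cbx3 was the first of the HP1 genes in controls and the second, behind Cbx1, in mutants. With the counts of its pseudogene copies and the genes that overlap them added to Cbx3 over the same exon length, it was first in both groups, at 28.2 ± 0.684 and 18.0 ± 1.47 CPM per kilobase (SD, n = 3), and did not overlap with Cbx1 in either. The sum may hold reads that belong to the overlapping genes alone, so it may overstate Cbx3.

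Summed over the class, the HP1 level per kilobase was 44.2, 47.1 and 47.4 CPM per kilobase in the controls and 32.2, 33.5 and 31.3 in the mutants. The sum was lower in every mutant library, with means of 46.2 ± 1.75 and 32.3 ± 1.12 (SD, n = 3 each, two-sided exact permutation p = 0.1, the smallest that 3 against 3 libraries allow). The summed level of the 4 Polycomb genes was 19.5 ± 1.02 in controls and 20.8 ± 1.06 in mutants, with overlapping ranges (exact permutation p = 0.3).

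The make-up of the HP1 class shifted with the fall of Cbx3. Cbx3 made up 43.1%, 42.2% and 43.4% of the summed HP1 level per kilobase in the controls, but 33.6%, 31.3% and 28.7% in the mutants. The mean share was 42.9 ± 0.649% in controls and 31.2 ± 2.45% in mutants, a difference of -11.7 percentage points (n = 3 each, two-sided exact permutation p = 0.1). A share within a library does not depend on how libraries are scaled. It can depend on GC content, and no sum, share or ratio was computed with the GC offset. With that offset the log2 fold changes were -0.65 for Cbx3, -0.12 for Cbx5 and -0.05 for Cbx1. Without it they were -0.97, -0.36 and -0.17. The share of Cbx1 was 32.3 ± 0.382% in controls and 41.2 ± 4.35% in mutants, and that of Cbx5 was 24.8 ± 0.803% and 27.6 ± 2.05%. Within the Polycomb class, Cbx6 made up 67.1 ± 0.446% in controls and 64.4 ± 1.99% in mutants, and Cbx7 made up 2.38 ± 0.126% and 5.28 ± 2.01%.

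**Figure D3:**
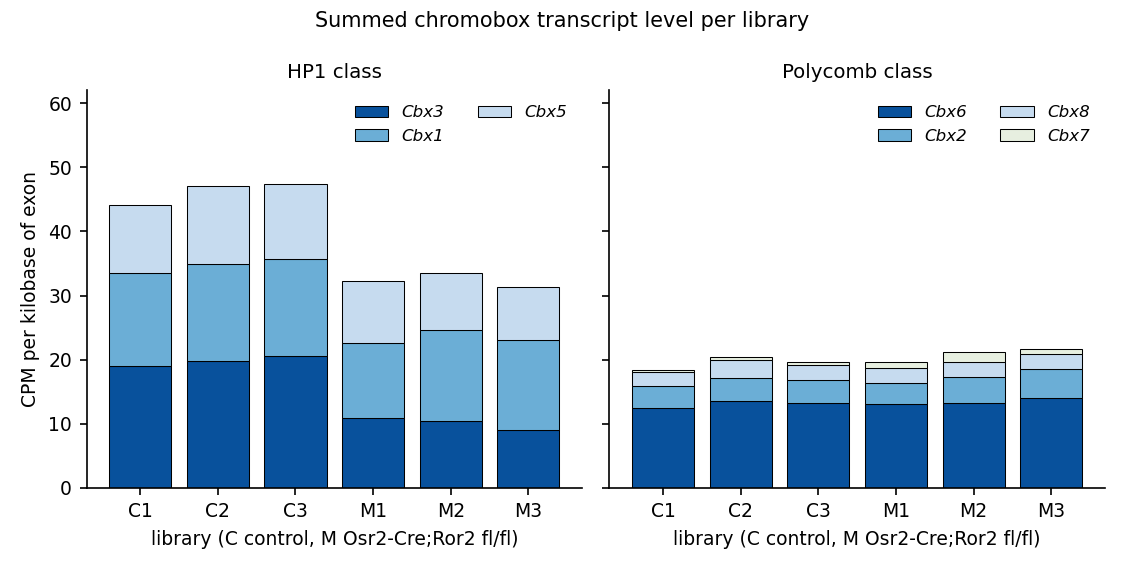
Stacked level per kilobase of exon of the HP1 genes (left) and the Polycomb genes (right) in each control (C) and mutant (M) library, 1 bar per library. The HP1 bars reach 44.2 to 47.4 in controls and 31.3 to 33.5 in mutants, mainly through the dark Cbx3 segment, while the Polycomb bars lie between 18.4 and 21.6 in all 6 libraries.

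Ratios between genes of the same class were compared in 9 pairs, and in 5 of them the groups did not overlap. The pairs share genes and are not independent, and 44.7% of the single genes tested did not overlap either. The log2 ratio of Cbx1 to Cbx3 was -0.90 ± 0.03 in controls and -0.09 ± 0.27 in mutants. That of Cbx3 to Cbx5 was 0.20 ± 0.07 in controls and -0.41 ± 0.06 in mutants (SD, n = 3 each). In every mutant library Cbx3 was thus lower relative to both other HP1 genes than in any control. The other 3 of the 5 pairs each contained Cbx7. These 5 pairs had the smallest exact permutation p that 3 against 3 libraries allow, 0.1 before and 0.18 after adjustment over the 9 pairs, and no ratio can reach 0.05 in this design.

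Reads were also counted for copies of Cbx3. Cbx3 lies on chr6:51470360-51483704, plus strand. Cbx3-ps6, a processed pseudogene on chr14:73955000-73955551, minus strand, holds 403 of the 478 stretches of 75 bases in the coding sequence of Cbx3 (84.3%). Cbx3-ps7 on chr1:58646688-58647239, plus strand, holds 394 of them (82.4%). Since the deposited counts are not whole for many genes, reads that fit several of these genes may have been divided among them, and the counts of Cbx3 and of each copy are uncertain.

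Cbx3-ps6 was listed at 39.2, 37.9 and 38.7 CPM in controls and at 27.6, 22.9 and 26.8 CPM in mutants. It was lower in every mutant (log2 fold change -0.59 ± 0.10 SE, edgeR adjusted p = 0.00821), a call lost without control library 3. The long noncoding RNA Gm49164, within which Cbx3-ps6 lies on the opposite strand, went the other way, from 11.5 ± 0.266 to 20.7 ± 3.25 CPM (log2 fold change 0.85 ± 0.13 SE, edgeR adjusted p = 0.0056). Cbx3-ps7 had at most 0.7 counts in a control library and 83.9, 26.8 and 57.7 counts in mutant libraries 1 to 3, at most 1.42 CPM.

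Cbx3 took 70.3 ± 1.02% of the reads summed over itself, its copies and the genes that overlap them in controls, and 56.1 ± 3.88% in mutants (SD, n = 3 each). The sum was 169 ± 4.10 CPM in controls and 108 ± 8.80 CPM in mutants. Taken as 1 gene, this sum was lower by a log2 fold change of -0.65 (edgeR adjusted p = 0.00574), a smaller change than that of Cbx3 alone. With sums in place of single genes the difference in the share of Cbx3 in the HP1 level was -6.93 percentage points in place of -11.7. For Cbx7 summed with Apobec3 the log2 fold change was 0.64 in place of 1.24 and no longer passed (adjusted p = 0.0693). Apobec3 alone, an antiviral cytidine deaminase gene, was at 4.78 ± 0.0912 CPM in controls and 5.08 ± 1.28 CPM in mutants (adjusted p = 0.774).

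Cbx3 and Cbx5 each start close to a gene for an RNA-binding protein. Cbx3 and Hnrnpa2b1, which encodes a splicing factor of the hnRNP family, start 466 bases apart on opposite strands. Hnrnpa2b1 was at 446, 437 and 447 CPM in controls and at 240, 298 and 366 CPM in mutants, below every control (log2 fold change -0.56 ± 0.16 SE, edgeR adjusted p = 0.0415). Its call was lost without any 1 of the 3 controls or without mutant library 1 or 2. Cbx5 and Hnrnpa1, a gene of the same family, start 616 bases apart on opposite strands. Hnrnpa1 was at 137 ± 16.0 CPM in controls and 105 ± 22.6 CPM in mutants, with overlapping ranges (log2 fold change -0.38 ± 0.17 SE, edgeR adjusted p = 0.13).

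Of the neighbours of the other genes, 1 passed the test. Snx11, a sorting nexin gene next to Cbx1, and Pdgfb, the growth factor gene next to Cbx7, did not pass the test (log2 fold changes 0.19 ± 0.15 and 0.19 ± 0.14 SE). Npcd, which overlaps Cbx6, passed it, but on 3.4, 0.8 and 2.6 counts in controls against 75.8, 18.7 and 11.4 in mutants. Cbx2 and Cbx8 start 18007 bases apart on opposite strands, and neither passed.

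The partners of the Polycomb readers changed in both directions, as did all genes tested. Of 18 other PRC1 subunit genes, all tested, 3 rose, 3 fell and 12 did not pass. The share called was 33.3%, where 20.2% of all genes tested were called, 10.4% higher and 9.84% lower. The median log2 fold change was 0.00 against 0.01 over all genes. Phc2, which encodes a polyhomeotic subunit that joins complexes together, rose from 75.4 ± 2.18 to 103 ± 3.19 CPM (log2 fold change 0.45 ± 0.08 SE, edgeR adjusted p = 0.0115). Pcgf2, the Mel18 subunit of canonical PRC1, rose from 34.0 ± 1.20 to 54.7 ± 13.5 CPM (0.69 ± 0.16 SE, adjusted p = 0.0254), and Pcgf1, the subunit of a variant PRC1, from 2.37 ± 0.354 to 4.51 ± 0.940 CPM (0.93 ± 0.21 SE, adjusted p = 0.0204).

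Bmi1, which encodes the paralogue that takes the place of Mel18 in PRC1, fell from 38.4 ± 2.45 CPM in controls (n = 3) to 29.1, 24.6 and 27.2 CPM in the mutants (log2 fold change -0.51 ± 0.10 SE, edgeR adjusted p = 0.0141). Pcgf2 and Bmi1, alternatives at the same position, thus moved in opposite directions. The other 2 that fell, Phc3 (-0.58) and Scml2 (-0.86), were named after their values were seen. The 3 PRC1 genes that rose had a GC content of 52.4% to 60.3% and the 3 that fell of 40.4% to 47.6%, and with the GC offset 2 of the 18 passed. None of the 18 passed without control library 2 or without control library 3, 3 did without mutant library 1 and 4 without mutant library 2.

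PRC2 writes the methyl mark that the Polycomb readers bind. Of its 12 subunit genes 2 rose, 1 fell and 9 did not pass (median log2 fold change -0.19). The share called was 25%, against 20.2% of all genes tested. Ezh1, one of a pair of alternative methyltransferases, rose from 26.0 ± 2.12 to 36.7 ± 1.82 CPM (0.50 ± 0.10 SE, edgeR adjusted p = 0.0138). Ezh2, the other of the pair, was at 19.2 ± 2.02 and 20.3 ± 0.891 CPM (adjusted p = 0.599). Phf1, an accessory subunit, rose (0.76 ± 0.22 SE, adjusted p = 0.0438) and Rbbp7, a histone-binding subunit shared with other complexes, fell (-0.28 ± 0.08 SE, adjusted p = 0.045). Phf1 was highest in mutant library 2, at 27.4 CPM, and without that library its log2 fold change was 0.45 (adjusted p = 0.0284). Suz12, the scaffold of the complex, had a value of -0.39 ± 0.14 SE that did not pass (adjusted p = 0.0852). None of the 12 passed without control library 2 or 3, and 1 did without control library 1, without mutant library 1 or with the GC offset.

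Few of the genes that write the H3K9 mark or work with HP1 passed the test. Of 21 such genes 2 rose, 0 fell and 19 did not pass (9.52% called against 20.2% of all genes, median log2 fold change 0.02). The genes that rose were Daxx, a histone H3.3 chaperone (21.8 ± 0.588 to 28.0 ± 0.996 CPM, 0.36 ± 0.09 SE, edgeR adjusted p = 0.0265), and Kmt5c, which encodes an H4 methyltransferase that HP1 recruits (19.9 ± 1.29 to 33.1 ± 11.5 CPM, 0.74 ± 0.21 SE, adjusted p = 0.045). Kmt5c was highest in mutant library 2, at 46.4 CPM, and without that library its log2 fold change was 0.43 (adjusted p = 0.0244). Atrx, the remodeller that works with Daxx, was at 172, 200 and 192 CPM in controls and at 127, 95.7 and 156 CPM in mutants, just short of the threshold (-0.57 ± 0.17 SE, adjusted p = 0.0504). Dnmt1, the maintenance DNA methyltransferase, had a value of -0.34 ± 0.12 SE (adjusted p = 0.0692).

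The H3K9 methyltransferase genes were among those that did not pass, with log2 fold changes of 0.05 for Suv39h1, -0.44 for Suv39h2, -0.08 for Setdb1, -0.09 for Ehmt1 and 0.15 for Ehmt2, named here for their role. Trim28, the corepressor that brings HP1 to zinc finger proteins, had a value of 0.19. The list had 0 calls without any 1 of the controls, 1 without mutant library 1, and 4 without mutant library 3. Of 13 demethylases of H3K9 and H3K27, 1 rose, Kdm3a (38.2 ± 0.716 to 48.1 ± 1.45 CPM, 0.33 ± 0.08 SE, edgeR adjusted p = 0.0266), and 12 did not pass. The share called was 7.69%, against 20.2% of all genes tested. The list had 0 calls without any 1 of the controls or without mutant library 1, and 2 without mutant library 2 or 3. Kdm7a (-0.62 ± 0.19 SE), Kdm1a (0.24 ± 0.09 SE) and Kdm4b (0.15 ± 0.08 SE) came next.

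Other genes with a chromodomain were compared with the chromobox genes. Of 18 such genes 1 rose, 3 fell and 14 did not pass (22.2% called against 20.2% of all genes, median log2 fold change -0.03). Morf4l1, which encodes the MRG15 reader of methylated H3K36, was at 102, 104 and 103 CPM in controls and at 61.3, 65.1 and 52.1 CPM in mutants. The groups were widely separated (-0.79 ± 0.10 SE, edgeR adjusted p = 0.0028), with a change in the same range as that of Cbx3. Cdyl (-0.51 ± 0.13 SE, adjusted p = 0.0314) and the remodeller gene Chd9 (-0.49 ± 0.13 SE, adjusted p = 0.0381) fell, and the acetyltransferase gene Kat5 rose (0.48 ± 0.13 SE, adjusted p = 0.04). The count was 1, Morf4l1, without any 1 of the controls or without mutant library 1, and 6 without mutant library 3. Morf4l1 itself did not pass with the GC and length offset (-0.44, adjusted p = 0.077).

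**Figure D4:**
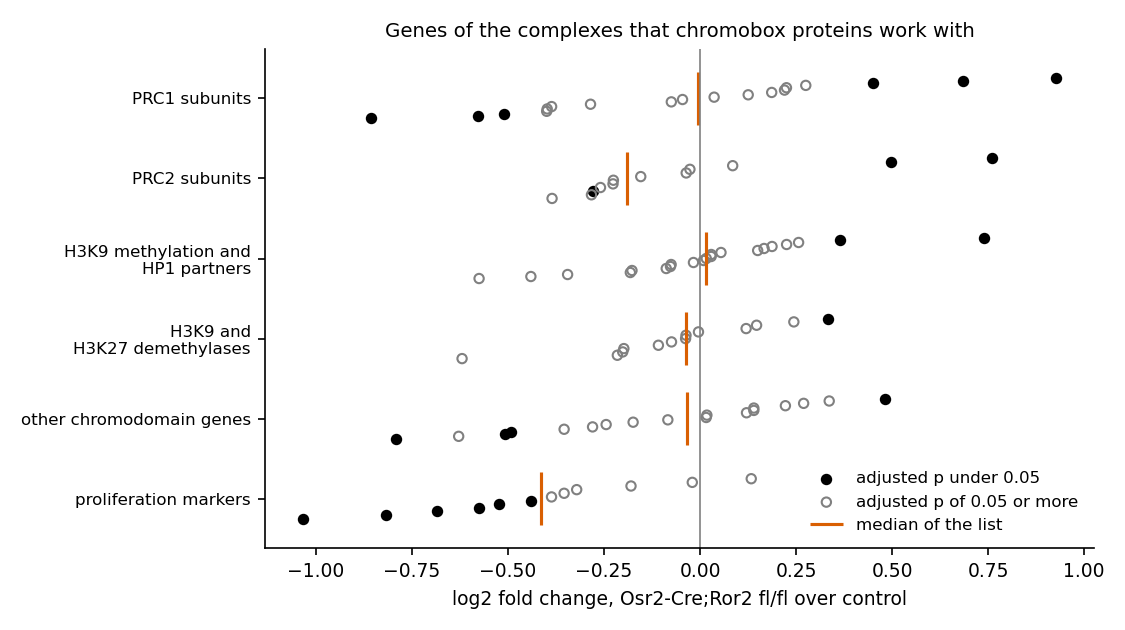
Log2 fold change of each tested gene in 6 lists, with filled points for an adjusted p under 0.05 (edgeR quasi-likelihood test), open points for the rest and an orange line at each list's median. The proliferation markers have the lowest median, -0.41, and all 6 of their filled points lie below 0, while PRC1 has 3 filled points on each side.

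Genes that Polycomb complexes are known to silence were at low levels in both groups. Of 41 genes of the Hox clusters and the Ink4 locus, 10 had a row in the table used here and 6 passed the filter. None of the 6 passed the edgeR test, DESeq2 or limma voom, and 1 had an unadjusted p under 0.05. That gene was Hoxd4, with 10.8, 11.6 and 13.9 counts in controls and 16.5, 34.0 and 18.2 counts in mutants (log2 fold change 0.96 ± 0.41 SE, edgeR adjusted p = 0.121). Hoxb2 (-0.67 ± 0.48 SE), Hoxd8 (-0.29 ± 0.22 SE) and Hoxd9 (0.49 ± 0.40 SE) were at most at 2.74 CPM in any library.

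Markers of dividing cells were lower in the mutants together with Cbx3. Of 12 proliferation markers 6 fell, 0 rose and 6 did not pass (50% called against 20.2% of all genes, median log2 fold change -0.41). Their summed level was 215 to 230 CPM in controls and 148 to 182 CPM in mutants. Bub1, a mitotic checkpoint kinase gene, fell from 4.46 ± 0.192 to 2.18 ± 0.191 CPM (-1.03 ± 0.16 SE, edgeR adjusted p = 0.0054). Ccna2, the cyclin A2 gene (-0.82 ± 0.14 SE, adjusted p = 0.00813), Top2a, the topoisomerase of dividing cells (-0.68 ± 0.13 SE, adjusted p = 0.012), and Mki67, the Ki67 gene (-0.57 ± 0.11 SE, adjusted p = 0.011), also fell. Without control library 3 the count was 2, and with the GC and length offset it was 3. What part the lower level of these markers has in the fall of Cbx3 was not tested.

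Markers of other cell types varied between libraries and in part between groups. All 7 skeletal muscle markers were lower in the mutants, with a summed level of 11.3 to 37.4 CPM in controls and 2.66 to 3.54 CPM in mutants, and Acta1 (9.16 ± 3.81 to 1.33 ± 0.0645 CPM) and Ckm (1.86 ± 0.987 to 0.0912 ± 0.0364 CPM) had the smallest p. Of 6 erythroid markers 2 were lower, Hba-a1 (239 ± 123 to 45.9 ± 30.2 CPM) and Alas2 (16.6 ± 4.81 to 5.26 ± 3.44 CPM), and the sums were 782 to 1320 and 244 to 933 CPM. The erythroid count was 0 without mutant library 1, 5 without mutant library 2 and 1 without any other library, and the muscle count was 4 without control library 2. Of the Schwann cell markers, S100b was higher (0.91 ± 0.18 SE), a call lost without control library 2 or 3. Of 5 macrophage and leukocyte markers 1, Adgre1, was lower (-0.61 ± 0.18 SE), with sums of 59.4 to 77.5 and 51.1 to 69.5 CPM, and Cd68 had a value of 0.41 ± 0.19 SE. Adgre1 did not pass without control library 2 or 3 or without mutant library 1 or 2. The 5 endothelial markers gave 0 calls and 0 unadjusted p under 0.05 with edgeR and 0 calls with DESeq2 and limma voom. Their sums were 170 to 227 and 162 to 217 CPM. Tie1, Emcn and Pecam1 had values of 0.27 ± 0.12, 0.24 ± 0.13 and 0.05 ± 0.15 SE. Cdh5 and Kdr went the other way, with -0.19 ± 0.17 and -0.32 ± 0.19 SE.

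The labelled tissue carried its own markers and those of the enamel organ. Of 11 dental mesenchyme and odontoblast markers 1 rose, the homeobox gene Msx2 (168 ± 8.59 to 219 ± 17.5 CPM, 0.38 ± 0.11 SE, edgeR adjusted p = 0.0416), and Pax9 had a value of -0.50 ± 0.16 SE. This count was 2 without control library 1 and 0 without control library 2 or 3 or mutant library 1 or 3. Their sums were 14550 to 46100 CPM in controls and 12930 to 35520 CPM in mutants. The 8 dental epithelium markers summed to 171400 to 191700 CPM in controls and 185000 to 255200 CPM in mutants, so libraries labelled dental pulp held a large share of epithelial transcripts. Amelx, the main enamel matrix gene, was at 94466 ± 5376 and 139642 ± 19159 CPM (0.56 ± 0.21 SE, adjusted p = 0.0849). Of the 8 markers 6 had a higher value in mutants and 2 a lower one, both of them also enamel matrix genes. Enam was at 19867 ± 1467 and 14297 ± 3791 CPM without overlap (-0.47 ± 0.23 SE, edgeR adjusted p = 0.163). Ambn had a value of -0.11 ± 0.22 SE. The epithelial list had 0 calls in edgeR, with an unadjusted p under 0.05 for 4 of 8 genes, and 3 calls with DESeq2 and 5 with limma voom, and 2 calls without control library 1 or mutant library 2. The part of these cell types in the values of the chromobox genes was not tested.

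The genes whose pattern over the 6 libraries was nearest to that of Cbx3 were picked by the smallest root mean square difference of centred log2 CPM. They were Zfp994, Ap3s1-ps1, Psat1, Tmie and Sh3bgrl, with distances of 0.066 to 0.083 and Pearson's r of 0.99 over 6 libraries that share the same group difference. Psat1, an enzyme gene of serine synthesis, was at 19.8, 24.2 and 23.5 CPM in controls and at 12.0, 11.2 and 10.7 CPM in mutants. Sh3bgrl was at 63.9 ± 6.55 and 31.6 ± 3.51 CPM, and the zinc finger gene Zfp994 at 7.70 ± 0.676 and 3.78 ± 0.488 CPM. Ap3s1-ps1 is a pseudogene whose counts may hold reads of its parent, and Tmie was at 0.401 ± 0.0117 and 0.199 ± 0.0182 CPM only.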

How the data were processed

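RNA-seq of P3.5 molar pulp covered 3 Ror2fl/fl and 3 Osr2-Cre;Ror2fl/fl libraries, grouped by genotype label. The table used was deposited as estimated counts, which the authors made from single-end reads of 75 cycles aligned to mm10 and counted over exons. The paper's methods name TopHat 2, while the submitters' processing notes name STAR 2.6.1d and Partek, so the aligner behind the counts is unsure. The counting program, annotation and use of strand are not given in the sources used here. Of the deposited estimated counts, 47.79% were whole, and all were rounded. A second deposited table of scaled values was not used, nor were 6 sample columns that no label assigns.

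Counts were compared with edgeR 4.0.16 in R 4.3.3 (TMM scaling, filterByExpr, quasi-likelihood test, Benjamini-Hochberg adjustment over 19330 genes, threshold 0.05). Log2 fold changes are those of this fit, and single values were compared by two-sided exact permutation tests (scipy 1.17.1). Exon lengths, GC content and shared stretches came from GENCODE M21. Alternatives included limma 3.58.1, DESeq2 1.42.0, GC offsets (loess span 0.3), other scalings and filters, sums with genes sharing at least 20 stretches, and leaving out each library. The procedure was tested on simulated data. Named genes were the members, Ror2, the 4 genes with the smallest p of each list (2 for cell type markers), neighbours, genes sharing stretches and the 5 genes nearest to Cbx3. Some genes that this rule names are not reported here. Members and lists were chosen with earlier results of these data known. Intervals come from the spread between libraries.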

Additional observations from a re-analysis of the deposited data

How the results depend on the processing

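Over 17 alternatives, Cbx3 passed the test in 17, Cbx7 in 13 and Cbx5 in 9. The number of genes called, 3906, was 6341 with limma voom and quality weights, 5410 with DESeq2, 2013 with a replicate block by sample index, 1285 with the block and GC offset, and 872 to 5001 without 1 library. The number of chromobox genes called was 1 to 3 without 1 library, and 2 with the block, where Cbx5 was lost (adjusted p = 0.117). Whether the indexes pair the samples is not known, and the paper's methods speak of 3 pairs. Same-numbered samples correlated at -0.100, -0.080 and -0.004 in their deviations from group means. With 3 libraries in a group, such correlations cannot show whether samples were paired. The difference in the share of Cbx3 was -12.89 to -10.44 points without 1 library. Directions turned for values near 0, with the GC offset, the GC and length offset and the block with GC offset in turn, for Cbx2 (-0.045, -0.033, -0.058), Cbx6 (-0.17, -0.045, -0.18), Kdm4b (-0.074, -0.049, -0.076) and Pdgfb (-0.038, -0.027, -0.032). Without 1 library, Cbx6 ranged from -0.015 (without control library 1) to 0.056 and was at -0.003 without mutant library 3, Cbx8 ranged from -0.15 to 0.055 (without control library 2) and Apobec3 from -0.10 (without mutant library 2) to 0.25. Without the filter Cbx5 had an adjusted p of 0.0559. The cause of these changes was not tested. Counts were low for Npcd, Cbx3-ps7 and the Hox genes.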
